A study of Arabidopsis thaliana with 16 samples.

Results

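Plant embryos made on the mother plant and embryos raised from callus share transcripts that are lower in the callus between them. A set of these is described here from ATH1 GeneChips. A probe set was a member when, in WT tissues, all 4 arrays of zygotic and mature somatic embryos had a signal of at least 200 and the lowest of them was at least 4 times the highest of the 4 arrays of induced explants. Of 22746 probe sets 96 passed, and 3 of them, *RCA*, *PSAN* and *LHCB4.2*, were left out as known parts of the photosynthetic machinery, so that the set holds 93 members. In the annotation used here 34 members have 1 gene each. The other 59 have no gene or more than 1, which was not told apart, and are called without a gene below. These 59 are counted but not named, and genes of the photosystems among them could not be left out by name. Signals are linear intensities that the authors scaled to a 2% trimmed mean of 500 on each array. The members were thus chosen by their WT signals, which are given as a description with no test. The main tests below were made on the *vtc2* arrays, which the choice did not use. Where WT arrays shared a fit as an alternative, this is stated.

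In Arabidopsis, zygotic embryos turn green at mid development and build working chloroplasts before the seed dries. Somatic embryogenesis starts from such embryos: the auxin analogue 2,4-D turns the explant into callus, and its withdrawal lets new embryos with a root and a shoot apex form. The callus is a dividing, auxin-fed tissue that draws sugar from the medium, whereas a green embryo makes some of its own. The part of sugar supply in the signals below was not tested.

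The arrays were hybridised with RNA of WT (Col-0) tissues and of *vtc2*, a T-DNA insertion line (*vtc2-5*) in Col-0 with a lesion in *VTC2*, which encodes an enzyme of ascorbate synthesis. Both genotypes were taken at 4 stages, with 2 biological replicates of each, 16 arrays in all: hand-dissected zygotic embryos at the bent-cotyledon stage, explants kept with 2,4-D for 7 d (D7I) or for 14 d (D14I), and somatic embryos after a further 14 d on maturation medium without hormone. Each array was labelled from 3 μg of RNA of whole tissue, and *vtc2* stands for 1 line. What is called a group below is 1 genotype at 1 stage.

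Array medians lay between 148 and 199, and 69.2 to 78.1% of the probe sets on an array exceeded 30. A signal under 30 is called weak here, and folds against it are rough. *VTC2* itself was not analysed here, so the mutant label was not checked on its gene. Of the seed coat markers, *BAN* was measured, at 200 and 532 in WT and 262 and 108 in *vtc2* zygotic embryos, and at no more than 15.4 at any other stage. Its part in the levels of zygotic embryos was not tested. The summed signal of the endosperm markers *AGL62* and *IKU2* was 72.7 at most on any array. That of the stomatal lineage genes *SPCH*, *MUTE* and *FMA* was 193 to 209 in WT and 225 to 268 in *vtc2* zygotic embryos, and 13.1 to 71.2 at the later stages. Of the shoot meristem markers, *CLV3* was measured, at 115 and 85.1 in WT zygotic embryos and 15.7 and 8.78 in WT somatic embryos. The latter lay within its WT induction range of 2.97 to 25.7. In *vtc2* it had 39.8 and 56.5 in zygotic embryos, 38.1 and 25.2 in somatic embryos and 2.07 to 17.5 during induction. The embryo identity, seed maturation, mesophyll, root and guard cell markers listed had no probe set with a gene name here. The embryo label was thus not checked on them.

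**Figure D1:**
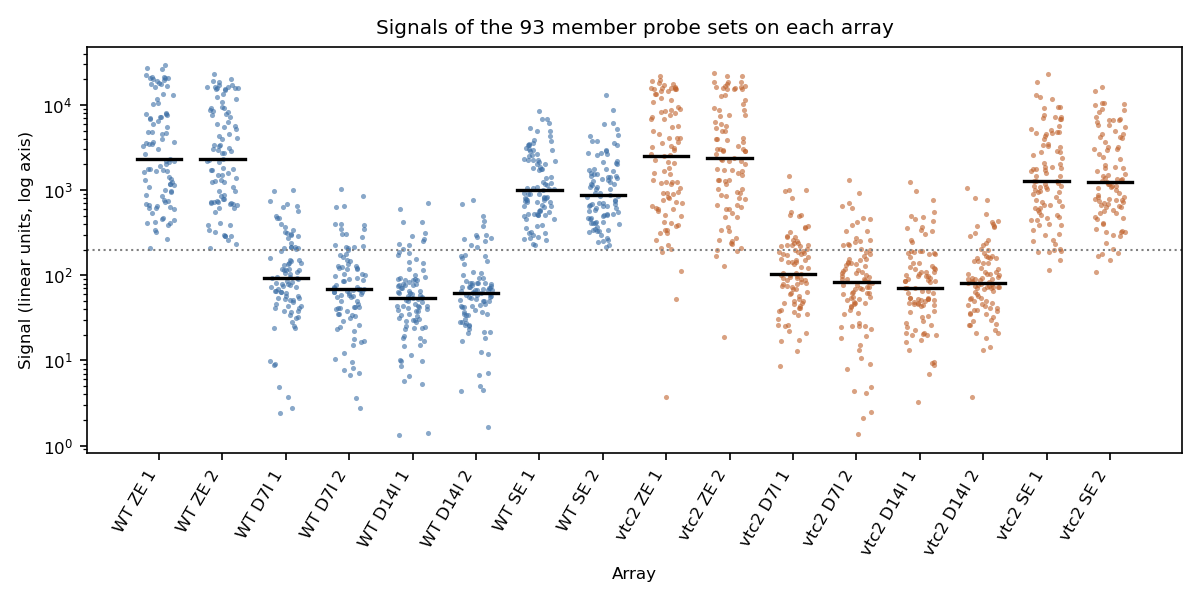
Signals (linear units on a log axis) of the 93 members on each of the 16 arrays, with a bar at the median of the members and a dotted line at 200. The median member signal was 887 to 2537 on the embryo arrays and 54.1 to 103 on the arrays of D7I and D14I, in both genotypes together.

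In WT tissues the ratio of the lowest embryo array to the highest induction array ran from 4.01 to 56.4, with a median of 6.42. The induction signals ranged widely, and no detection calls were used. Between 11 and 25 of the 93 had a weak signal on a WT induction array, and between 9 and 19 on a *vtc2* one. *AT3G22240*, for instance, stayed at 212 to 639.6 in induced WT explants and passed because its embryo signals were higher still. Near the edge of the rule, the ratio of *AT4G12980* was 4.11 and those of *AT1G51400*, *AT2G48130* and *AT5G45410*, which were not members, were 3.82, 3.82 and 3.80. By signal, *AT3G14560* and *AT4G22790* were just inside, with lowest embryo signals of 209 and 210.4, and *AT4G23680* was outside at 138.

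Applied to the 8 *vtc2* arrays, the same rule was passed by 190 probe sets, which is 0.835% of all, or by 180 without the genes left out by name. Of the 93 members 62 were among them, 66.7% of the WT list and 34.4% of the *vtc2* list. Of the 34 named genes 19 passed in both genotypes. The other 31 members failed in *vtc2* for different reasons: 21 had a ratio under 4, 3 had an embryo signal under 200 and 7 had both. A ratio under 2 was seen in 7. The median ratio over the members was 6.93 in *vtc2*, close to that of WT tissues.

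In *vtc2*, the mean of the embryo stages was compared with the mean of the induction stages by limma, and a probe set was called at a Benjamini-Hochberg adjusted p under 0.05 over all 22746 probe sets with a change of at least 2-fold. Of the members 92 were higher in embryos, among them all 34 named genes, against 11.6% of all probe sets. None was lower, against 14.0% of all, and 92 members had an unadjusted p under 0.05 in either direction, against 52.3% of all. The median log2 difference was 4.37 over the members and −0.17 over all probe sets. The embryo arrays of *vtc2* all lay above the induction arrays for 91 members, against 10.6% of all probe sets. The exceptions were *AT3G22620* and 1 probe set without a gene. As RNA came from whole tissue, fewer cells of a type and less RNA per cell cannot be told apart.

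**Figure D2:**
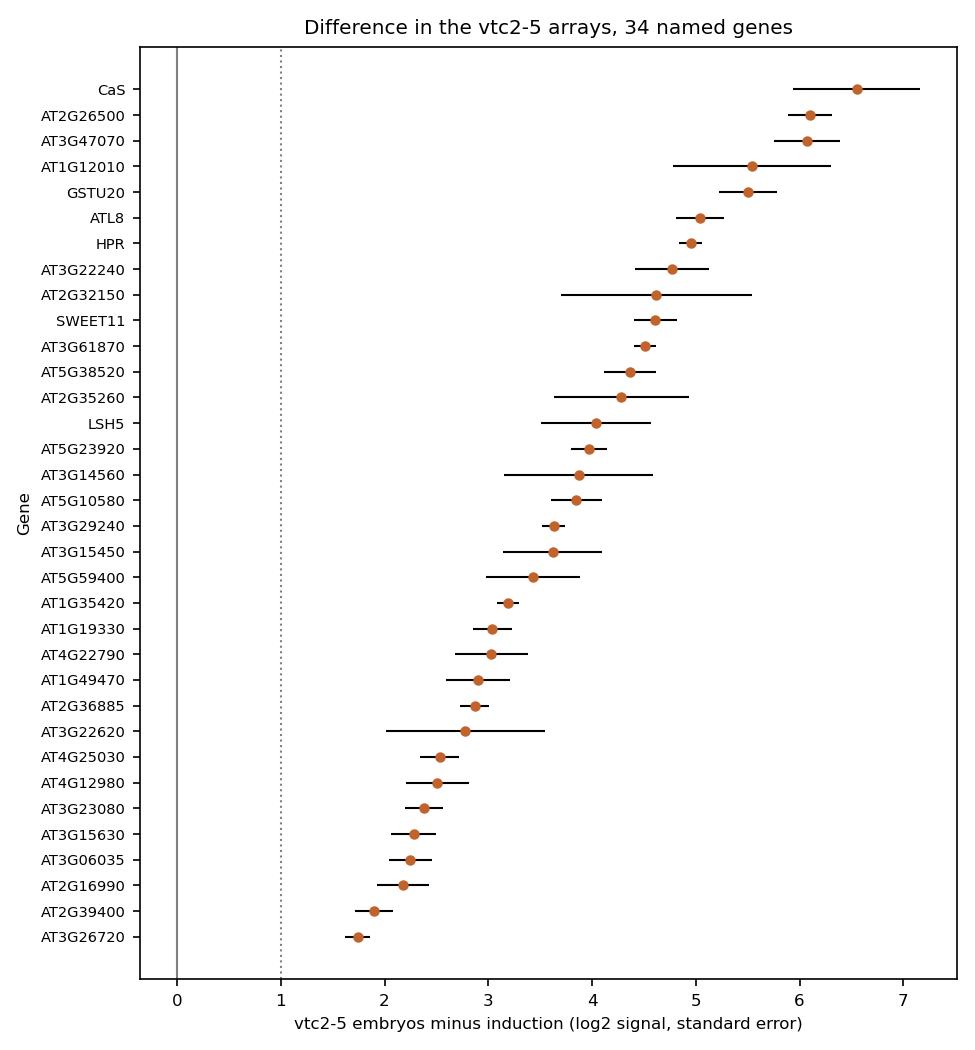
Difference of the mean log2 signal of embryo and induction stages in the *vtc2* arrays, with its standard error, for the 34 named genes. The values run from 1.74 for *AT3G26720* to 6.55 for *CaS*, all above the dotted line that marks a 2-fold difference.

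The steps of culture were tested in turn. From zygotic embryos to D7I, 90 members fell, against 12.6% of all probe sets, and the 2 named genes not called were *AT3G22620* (−2.08 on the log2 scale, adjusted p = 0.189) and *AT2G32150* (−4.04, adjusted p = 0.0555), both with replicates that differed widely. From D14I to somatic embryos 90 members rose, against 11.6% of all. The named genes not called were *AT3G22620* (3.47, adjusted p = 0.0597) and *AT3G14560* (2.60, adjusted p = 0.108). Both changes were of like size, with medians of −4.60 and 4.29 on the log2 scale.

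The steepest named differences belonged to proteins of the chloroplast. *AT2G26500* encodes the small PetM subunit of the cytochrome b6f complex, which passes electrons between the photosystems. Its signals in WT were 11625 and 10955 in zygotic embryos, 145 and 127 at D7I, 34.4 and 53.9 at D14I and, in somatic embryos, 2854 and 2073. In *vtc2* zygotic embryos had 10704 and 9273, D7I had 163 and 187, D14I had 47.4 and 84.8 and somatic embryos had 5017 and 5502. The stages did not overlap in either genotype, though in WT the rule itself set embryos apart from induction. The *vtc2* somatic embryos lay above those of WT on both arrays. The log2 difference of embryos over induction in *vtc2* was 6.10 ± 0.21, adjusted p = 7.33e-05.

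*CaS* encodes a calcium-sensing protein of the thylakoid membrane. It was among the dimmest members at D14I, with WT signals of 1.39 and 7.13 after 33.7 and 17.7 at D7I, against 3457 and 2952 in zygotic and 509 and 297 in somatic embryos. The *vtc2* arrays gave 3623 and 2911 in zygotic embryos, 26.0 and 25.1 at D7I, 3.28 and 22.7 at D14I and, in somatic embryos, 622 and 576. All 8 induction signals but 1 were under 30, so the size of the log2 difference (6.55 ± 0.61, adjusted p = 0.000819) is uncertain. *AT3G47070*, a thylakoid phosphoprotein, went from 4507 and 3918 in *vtc2* zygotic embryos to 19.9 to 53.2 during induction and 1853 and 1671 in somatic embryos. Its WT somatic embryos had 749.6 and 683, below both *vtc2* arrays.

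*HPR*, the peroxisomal hydroxypyruvate reductase of photorespiration, had the smallest error among these genes. Its signals in *vtc2* were 6819 and 5978 in zygotic embryos, 228 and 224 at D7I, 103 and 89.8 at D14I and, in somatic embryos, 3305 and 3248 (embryos over induction 4.95 ± 0.11, adjusted p = 4.61e-05). In WT, zygotic embryos had 5899.6 and 4595, D7I 468 and 352, D14I 100.1 and 105, and somatic embryos 2019 and 2039. Stages did not overlap in either genotype, which between embryos and induction in WT the rule asked for. *AT5G38520*, which encodes a chlorophyll dephytylase, an enzyme that takes the phytol tail off chlorophyll, followed the same course in *vtc2*, from 4094 and 3041 in zygotic embryos through 155 and 132 at D7I and 36.9 and 72.7 at D14I to 904 and 887 in somatic ones. *AT5G59400*, a PGR5-like protein, was weaker, at 177 to 483 over the *vtc2* embryo arrays and 9.05 to 38.6 during induction. Of these 6 genes of the chloroplast and of photorespiration, all were lower on both arrays of somatic than of zygotic embryos in each genotype, as were 64 of the 93 members in WT, against 24.9% of all probe sets, and 63 in *vtc2*, against 34.2%. The mean of somatic embryos was 12.6 to 67.3% of that of zygotic embryos in WT and 18.3 to 52.7% in *vtc2*. Role groups, here and below, were formed after the values were seen.

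**Figure D3:**
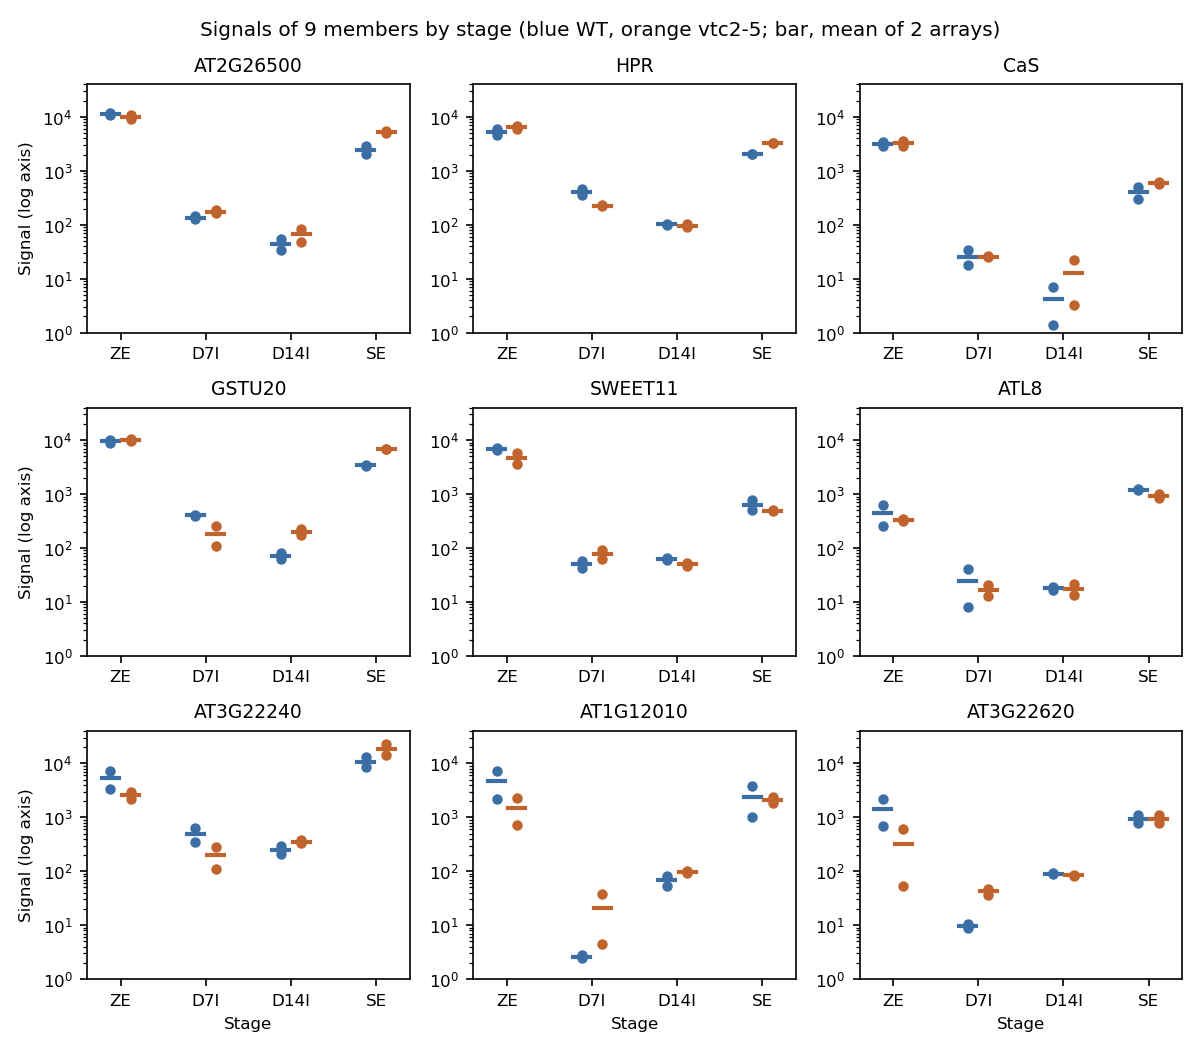
Signals (log axis) of 9 members at the 4 stages, with WT in blue and *vtc2* in orange, points for the 2 arrays and a bar at their mean. The genes in the top row stop short of the zygotic level in somatic embryos, *ATL8* and *AT3G22240* pass it, and *SWEET11* stays at 9.21% of it in WT and 10.5% in *vtc2*.

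Genes of the same pathways outside the set were looked at through lists that were drawn up with earlier results of these data known. Of 8 measured genes of chlorophyll synthesis, 5 were higher in *vtc2* embryos than during induction and none was lower, where 11.6% of all probe sets were higher. *PORB*, which reduces protochlorophyllide in the light, differed by 4.99 on the log2 scale. Of the electron carriers and ATP synthase 3 of 4 were higher, of the NDH complex 3 of 3, of photosystem assembly, repair and photoprotection 5 of 8 with *CaS* the only member, and of the plastid redox proteins 4 of 5, with none lower. *SBPASE*, the measured Calvin cycle enzyme, differed by 4.67. It was no member because its WT mean was still 474 at D7I, before 42.6 at D14I. In photorespiration the gene measured was *HPR*, which was called. No gene was called among the 1 of carotenoid and tocopherol synthesis, the 2 of plastid division and import and the 1 of light and plastid regulators that were measured. The plastid lists hold 2 members in all, but most of the listed genes had no named probe set here. Measured were 1 of 21 listed Calvin cycle genes and 4 of 21 electron carrier and ATP synthase genes. Of the NDH complex 3 of 28 were measured, and of photosystem assembly, repair and photoprotection 8 of 47. *AT2G26500*, *AT3G47070*, *AT5G38520* and *AT5G59400*, described above, are members that these lists did not match. The 2 are thus no count of the plastid genes in the set. Starch and sucrose metabolism held no member, with 0 of 5 higher and 2 lower.

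Transporters and cell surface proteins made up a second group of 5. *SWEET11*, an exporter of sucrose, was among the brightest named members in zygotic embryos, with 6559 and 7198 in WT and 5728 and 3628 in *vtc2*. In WT it stood at 57.2 and 42.4 at D7I and at 59.1 and 66.5 at D14I. In *vtc2* these stages had 90.9 and 63.8 at D7I and 46.2 and 53.6 at D14I. Somatic embryos had 769.8 and 497 in WT and 505 and 481 in *vtc2*. These lay above every induction array, which in WT the rule asked for, and below every zygotic one. In *vtc2* the shortfall against zygotic embryos was tested and passed (−3.21 ± 0.29, adjusted p = 0.00106). No other member fell that far between the embryo types in *vtc2*.

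*AT3G22620*, which encodes a lipid-transfer-type protein, varied widely between replicates. Its zygotic embryo signals were 2175 and 690.0 in WT and 52.4 and 599 in *vtc2*, and the lower *vtc2* array overlapped the induction range of 36.5 to 85.3. Somatic embryos had 795 and 1087 in WT, within the zygotic range, and 1111 and 784 in *vtc2*, above it. The difference of embryos over induction was 2.78 ± 0.77, adjusted p = 0.0319. It did not pass when any 1 of the 6 *vtc2* arrays of the other stages was left out (adjusted p = 0.0726 to 0.092 by limma) and under the moderated F test. Without the first or the second zygotic array the difference was 3.66 or 1.90. *AT3G06035*, a GPI-anchored glycoprotein, varied less, with 1104 to 1770.1 on *vtc2* embryo arrays and 154 to 438 during induction. The MATE transporter *AT4G22790* had 225 and 244 in WT somatic embryos and 116 and 108 in *vtc2*. The major facilitator *AT2G16990* had 563 and 742 in WT somatic embryos and 449.6 and 319.6 in *vtc2*. In both, the *vtc2* somatic embryos lay below those of WT.

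Of 5 genes of hormone synthesis, conjugation and regulation, *AT1G12010* had the widest range. It encodes an ACC oxidase, the enzyme that makes ethylene. At D7I its WT signals of 2.44 and 2.79 were close to the bottom of the scale, and at D14I they were 54.1 and 81.0. The *vtc2* signals were 38.1 and 4.38 at D7I and 99.1 and 93.4 at D14I, so that in both genotypes D14I lay above D7I. Embryo signals scattered, at 7308 and 2206 in zygotic and 1032 and 3736 in somatic embryos of WT. In *vtc2* the zygotic ones had 729 and 2255 and the somatic ones 2401 and 1829.6, so that the embryo types overlapped in both genotypes. The difference over induction in *vtc2* was 5.54 ± 0.76, adjusted p = 0.0029.

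*GSTU20*, a tau class glutathione S-transferase, was bright and even in zygotic embryos, at 10129 and 8819 in WT and 9548 and 10300 in *vtc2*. In WT it stood at 405 and 398 at D7I and 62.7 and 81.3 at D14I, and its somatic embryos had 3378 and 3415. In *vtc2*, D7I had 252 and 111, D14I had 178 and 225 and somatic embryos had 6878 and 6905. The somatic embryos of *vtc2* lay above those of WT with no overlap, by 2.03-fold. The difference over induction was 5.50 ± 0.28, adjusted p = 0.000176.

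*ATL8*, a RING-type ubiquitin ligase, ran the other way between the embryo types. It had 636 and 258 in zygotic and 1225 and 1171 in somatic embryos of WT. In *vtc2* zygotic embryos had 316 and 339 and somatic embryos 1019 and 838. During induction no array was above 41.2. The rise from zygotic to somatic embryos in *vtc2* passed the test (1.50 ± 0.32, adjusted p = 0.0168), but not when WT arrays shared the fit (adjusted p = 0.107) nor without any 1 of the 4 *vtc2* embryo arrays (adjusted p = 0.0504 to 0.0822). *LSH5*, of the ALOG family of regulators, was faint in zygotic embryos, at 269 and 392 in WT and 259.9 and 127 in *vtc2*, and its somatic embryos had 256 and 344 in WT and 396 and 458 in *vtc2*. It stayed below 30 on all 8 induction arrays.

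The 4 hydrolases were *AT3G26720*, an alpha-mannosidase, *AT2G32150*, of the HAD family, and *AT2G39400* and *AT1G35420*, of the alpha/beta hydrolase family. *AT3G26720* had the smallest difference of all named members (1.74) and kept 313 to 510.1 in induced *vtc2* explants, against 1008 to 1999 in embryos. *AT2G32150* differed by more (4.62) but was weak and uneven during induction, at 4.15 to 43.3. *AT2G39400* and *AT1G35420* were higher in embryos by 1.90 and 3.19.

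No role is given here for the remaining 14 named genes, all higher in *vtc2* embryos by 2.28 to 4.77 on the log2 scale. *AT3G22240* was the brightest of them in somatic embryos, with 8597 and 12963 in WT and 22887 and 14430 in *vtc2*. Its zygotic embryos had 7174 and 3384 in WT and 2232 and 2936 in *vtc2*. The rise between the embryo types in *vtc2* was 2.83 ± 0.50, adjusted p = 0.00888, and without the first somatic embryo array the adjusted p was 0.0504. *AT3G15450* and *AT3G15630* kept the highest induction signals among these genes in *vtc2*, at 330.4 to 1471 and 459 to 815. *AT3G61870* was among the steadiest. Its *vtc2* signals were 2536 and 2205 in zygotic embryos, 92.1 and 99.0 at D7I, 33.6 and 35.7 at D14I and, in somatic embryos, 726 and 734 (embryos over induction 4.51 ± 0.11, adjusted p = 4.61e-05). Replicates of it differed by little beside the steps between stages.

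**Figure D4:**
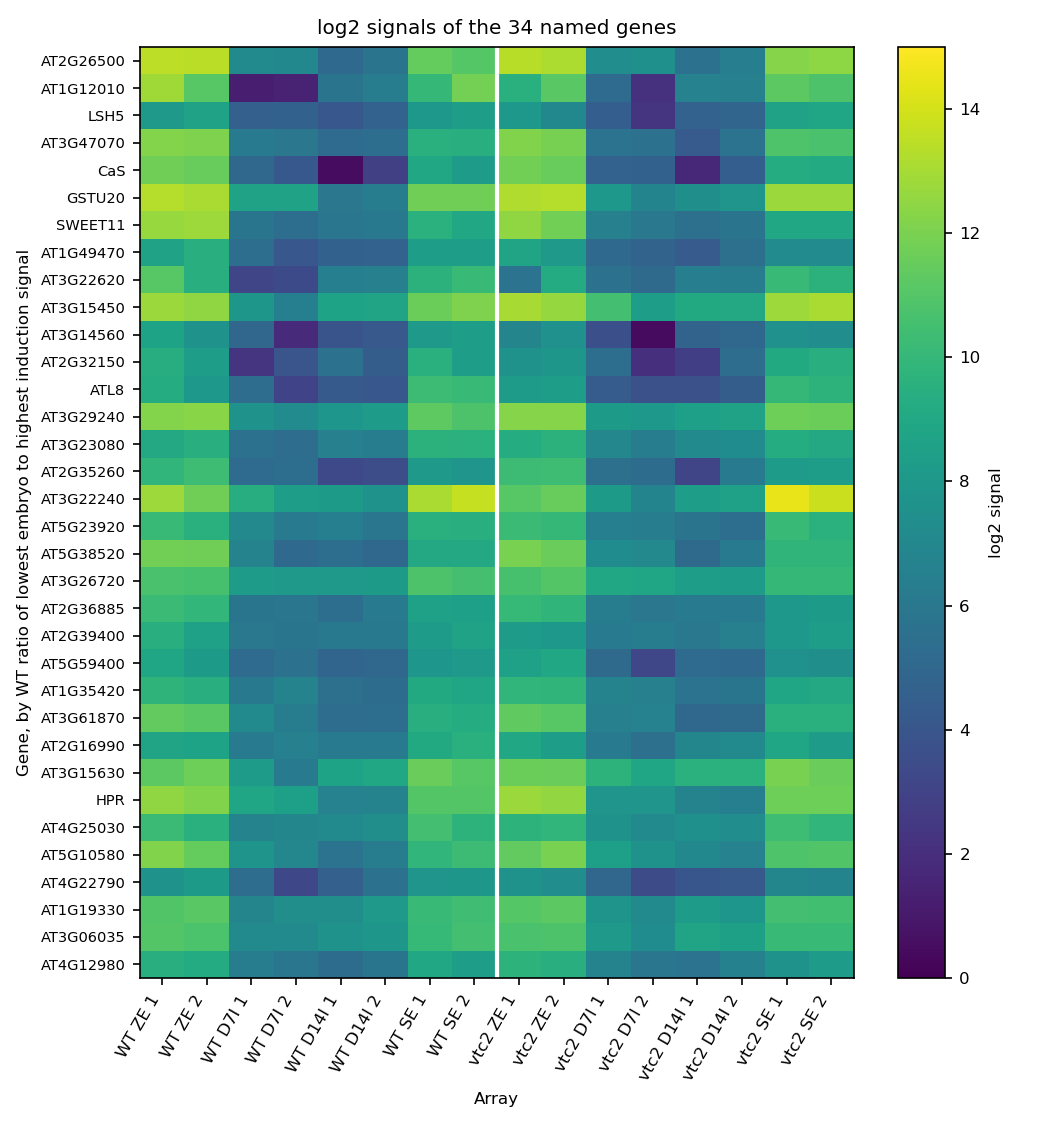
Log2 signal of the 34 named genes (lines, ordered by the WT ratio of the lowest embryo to the highest induction array) on the 16 arrays (columns, WT left of the white line and *vtc2* right of it). Embryo columns are brighter than induction columns, as the rule asked for in WT, except *AT3G22620* on 1 *vtc2* zygotic array. Among the least dark induction columns in *vtc2* are those of *AT3G15450*, *AT3G15630* and *AT3G26720*.

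Of the 59 probe sets without a gene, 58 were higher in *vtc2* embryos, 58 fell at D7I and 58 rose in somatic embryos. The exception, picked out after its values were seen, had WT signals of 1135 and 232 in zygotic and 268 and 428 in somatic embryos. In *vtc2* it was at 3.73 and 18.9 in zygotic embryos, within its induction range of 2.48 to 49.7, and at 841 and 662 in somatic embryos. The zygotic embryos of the genotypes did not overlap, and the WT arrays of that stage differed by 4.88-fold. Its difference over induction was 1.82 ± 1.05, adjusted p = 0.221.

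Within induction, the log2 difference of D14I from D7I in *vtc2* had a median of −0.17 over the members, against 0.01 over all probe sets. Over single members it ran from −1.84 to 2.90. From D7I to D14I 9 members fell, against 1.83% of all probe sets, and none rose, against 1.04%. An unadjusted p under 0.05 in either direction was found for 30 members, against 22.6% of all probe sets. The named ones among the 9 were *AT3G61870* (−1.46 ± 0.15, adjusted p = 0.0275) and *HPR* (−1.23 ± 0.16, adjusted p = 0.0313). These calls rest on every array: without either zygotic embryo array the count was 2, and without any other single array it was 0. In WT, with no test, D14I lay below D7I on both arrays for 46 members, against 31.4% of all probe sets, and above it for 20, against 28.6%. In *vtc2* it lay below for 35, against 29.9%, and above for 17, against 28.2%. By their means all 6 genes of the chloroplast and of photorespiration were lower at D14I in WT and 5 in *vtc2*, the exception being *AT5G59400*. By mean log2 signal, 63 of the 93 members were lower at D14I in WT and 54 in *vtc2*. Over all probe sets the median log2 difference was −0.03 in WT and 0.01 in *vtc2*.

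Somatic embryos regained the zygotic level unevenly. In *vtc2* 38 members were lower in somatic than in zygotic embryos, against 12.7% of all probe sets, and 7 were higher, against 16.3%. The median log2 difference was −0.95, against 0.01 over all. Named genes among the lower were *SWEET11*, *AT5G38520* (−1.98), *AT2G36885* (−1.85), *AT3G61870* (−1.70) and *AT4G12980* (−1.61). The last was not called without any 1 of the 4 embryo arrays (adjusted p = 0.0624 to 0.139). The higher ones were *ATL8*, *AT3G22240* and 5 probe sets without a gene. The count of higher members was 2 without the first replicate of somatic embryos, 3 without the second and 4 without the first replicate of zygotic embryos. In WT the median was −1.36, against 0.16 over all, with 64 members lower on both arrays, against 24.9% of all, and 10 higher, against 37.7%. Over the 93 members the WT and *vtc2* differences between embryo types had a Pearson r of 0.724, and over all probe sets 0.782. The points share arrays and a scale within a genotype, so r describes likeness only.

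**Figure D5:**
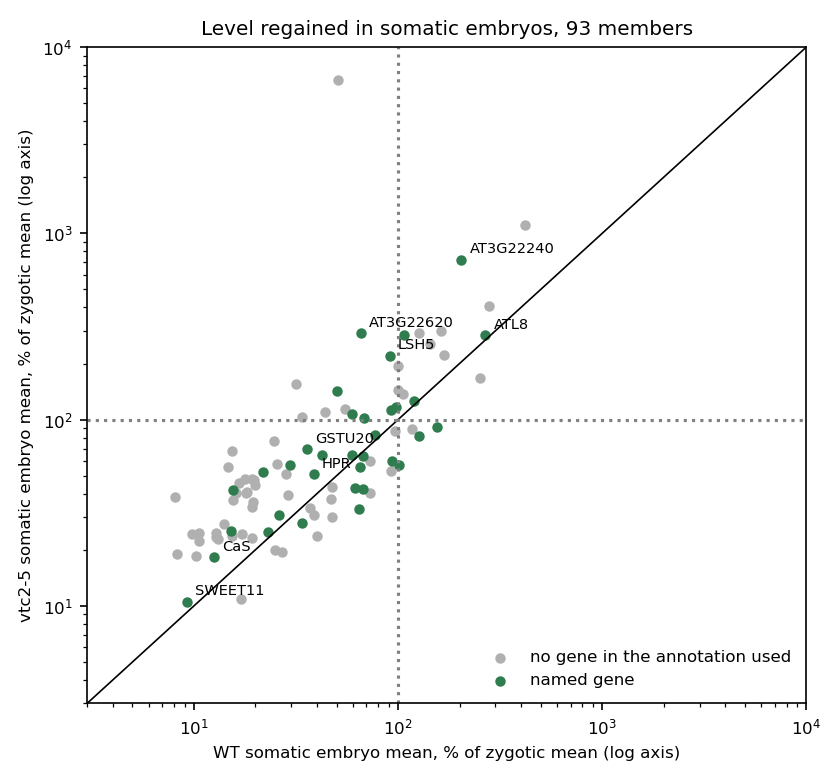
Mean signal of somatic embryos as a percent of that of zygotic embryos, in WT (horizontal, log axis) and *vtc2* (vertical, log axis), for the 93 members, with dotted lines at the zygotic level and a line of equality. Most members lie below the zygotic level in both genotypes, and *SWEET11*, at 9.21% and 10.5%, is among the lowest.

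The genotypes were compared stage by stage as positions of arrays, with no test, since high WT embryo signals and low WT induction signals were asked for by the rule. In zygotic embryos both *vtc2* arrays lay above both WT arrays for 11 members, against 15.8% of all probe sets, and below for 25, against 17.4%, with a median log2 difference of −0.07. At D7I they lay above for 24, against 28.9%, and below for 20, against 27.2%, with a median of 0.15. At D14I they lay above for 55, against 21.5%, and below for 6, against 19.6%, with a median of 0.51. In somatic embryos they lay above for 56, against 18.9%, and below for 18, against 32.4%, with a median of 0.52, where all probe sets had −0.15. Among the 34 named genes *vtc2* somatic embryos lay above for 16 and below for 10, and the other members have no single gene here. At D7I and D14I the rule itself favours *vtc2* above WT, as it kept low WT signals there. In embryos it asked for high WT signals. The *vtc2* somatic embryos stood above those of WT in 5 of the 6 genes of the chloroplast and of photorespiration, *AT5G59400* being below. They did so in 2 of the 5 genes of hormone synthesis, conjugation and regulation, 0 of the 5 transport and cell surface genes, 0 of the 4 hydrolases and 9 of the 14 with no role given. Groups this small, formed after the values were seen, describe these genes only.

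Some members varied between the replicates of an embryo group. A difference of 2-fold or more was seen for 8 members in WT somatic, 1 in *vtc2* somatic and 7 in *vtc2* zygotic embryos. The share over all probe sets was not counted. In WT zygotic embryos 7 differed that much, among them *AT1G12010* (3.31-fold), *AT3G22620* (3.15-fold), *ATL8* (2.47-fold) and *AT3G22240* (2.12-fold). All 7 of these were higher in zygotic replicate 1 in WT and lower in zygotic replicate 1 in *vtc2*. The 7 were picked by their WT spread, and in *vtc2* their ratio of replicate 1 to replicate 2 ran from 0.0875 to 0.933. *BAN* ran opposite to these 7 in both genotypes, being lower in replicate 1 of WT and higher in replicate 1 of *vtc2*. The 7 do not stand for all members, as *SWEET11* had its replicates in the order of *BAN*, at 6559 and 7198 in WT and 5728 and 3628 in *vtc2*. With 2 arrays per group, an order of replicates is only the sign of 1 difference, which for *SWEET11* in WT was small. The part of seed coat tissue in these values was not tested.

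Of the 34 named genes 33 were placed on a chromosome by the RefSeq annotation. Chromosome 3 holds 12 of the 33, or 36.4%, where 20.5% of the measured genes lie on it. No pair of these 33 lay within 20 genes of each other.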

How the data were processed

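As deposited by the authors, the values are linear intensities, 1 per probe set and array, with the 2% trimmed mean of each array set to 500. RMA values, which the methods mention, were not used here. Images were taken with GCOS, and the genome build is not given in the sources used here. All 16 arrays were used, 64 of 22810 probe sets are controls and were set aside, and 0 columns were left unused. Gene names come from the platform annotation (probe sets: 13513 with 1 gene, 503 with several, 8730 with none), and chromosomes come from RefSeq TAIR10.1.

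Log2 signals, without an offset, of the 8 *vtc2* arrays were fitted with 4 group means in limma 3.58.1 (R 4.3.3), which left 4 residual and 1.51 prior degrees of freedom. P values were adjusted by Benjamini-Hochberg over all 22746 probe sets, and a call needs an adjusted p under 0.05 and a change of at least 2-fold. The ± values are standard errors of the log2 difference. With 2 biological replicates per group, arrays limit the precision. The members and gene lists were chosen with earlier results of these data known. Genes were named where they are members with 1 gene, in a list, next to a threshold, or an exception in a test. The replicate numbers do not pair arrays (correlations of deviations −0.101 to 0.0443 over 6 pairs of groups). Alternatives were a signal filter, an offset, other scalings and priors, array weights, all 16 arrays, the replicate number as a block, single thresholds, a moderated F test, and leaving out each array. Sequences and coordinates were not used here.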

Additional observations from a re-analysis of the deposited data

Results flagged for a closer look

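Between D7I and D14I, 3 of the 93 members moved in opposite directions in the genotypes, with both arrays of each stage apart, as 7.50% of all probe sets did. The named ones are *SWEET11* and *AT3G22240*. The difference of D14I from D7I for *SWEET11* was 0.35 on the log2 scale in WT and −0.61 in *vtc2*. *AT3G22240* had −0.93 in WT and 1.02 in *vtc2*. The difference between the genotypes was not tested, and in *vtc2* alone neither change passed (adjusted p = 0.29 and 0.308 by limma).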

How the results depend on the processing

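No called difference of a named gene changed sign under the alternatives run. The members higher in *vtc2* embryos than during induction numbered 91 to 92 with an array left out, those lower at D7I than in zygotic embryos 87 to 90, and those higher in somatic embryos than at D14I 72 to 91. The change from D7I to D14I depended most on the settings. Its 9 lower members became 5 with median centring, 17 with a trended prior, 18 with a 2-fold change alone, 18 with the moderated F test and 0 to 2 with an array left out. Its 0 higher members became 9 with a 2-fold change alone and 8 with the moderated F test. With the replicate number as a block, 0 members were lower at D14I, and 92 were still higher in embryos than during induction. Of 107 calls of named genes over the tests, 7 were lost with the block and up to 17 with an array left out. Over all probe sets, 236 higher and 416 lower calls at D14I became 2461 and 1899 with a 2-fold change alone, 1099 and 1219 with the moderated F test, 516 and 852 with a trended prior, 476 and 779 with array weights, 421 and 775 with a filter at 30, 406 and 676 with an offset of 30, and 0 and 2 with the block. Median centring gave 264 lower. By an adjusted p alone, 6254 probe sets were lower in embryos than during induction in place of 3184, and 4169 lower in somatic embryos than at D14I in place of 2603. By a 2-fold change alone that step had 3994 higher and 4298 lower in place of 2631 and 2603. The 7 members higher in somatic than zygotic embryos became 11 with an offset of 30, 12 with a 2-fold change alone, 11 with the moderated F test and 2 to 6 with an array left out. *ATL8* was no longer called there when WT arrays shared the fit (adjusted p = 0.107), and *HPR* no longer at D14I after median centring (adjusted p = 0.0517). The rule picked 51 members at a ratio of 6, 83 after quantile normalization, 75 at one median signal, and 94 to 130 with a WT array left out. The 11 members with *vtc2* above WT in zygotic embryos became 19 after quantile normalization. Weak signals, under 30 for up to 25 members on an induction array, limit the size of differences, and 2 arrays per group limit the tests.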

Other observations

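*STOMAGEN*, a gene of the stomatal lineage outside the set, had mean signals of 779 in WT and 893 in *vtc2* zygotic embryos, 2.84 to 45.3 during induction, and 66.7 and 151 in somatic embryos. *SPCH* was fainter, with 142 and 199 in zygotic embryos and no more than 12 in any later group, and *MUTE* and *FMA* were at 45.4 or below in every group. Of the 3 measured seed storage, oil body and late embryogenesis genes, *OLEO3* was higher in *vtc2* embryos than during induction (2.31 on the log2 scale), and *M10* (−3.93) and *M17* (−7.69) were lower. From D14I to somatic embryos the mean of *M10* went from 576 to 1004 in WT and from 261 to 1765 in *vtc2*, and that of *M17* from 1843 to 21.0 and from 728 to 29.3.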
